A study of Mus musculus with 36 samples.

Results

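A set of 10 genes of the choroid plexus and of the ciliated lining of the brain ventricles were followed through 36 RNA-seq libraries of mouse brain, as 10 of the 19025 genes of the deposited gene table. They were taken by symbol: Ttr, Kcne2, Prlr, Sostdc1, Folr1, Kl, Clic6, Prr32, Ccdc153 and Foxj1, and all 10 were listed. The libraries came from C57 mice aged 6 to 7 weeks, either wild-type (WT) or of a genotype labelled KI. The series title concerns a synonymous mutation in Maoa, the gene of monoamine oxidase A, and the labels do not spell out the KI allele further. The 6 dissected regions labelled HP, PFc, Nac, STR, SN and VTA gave 3 WT and 3 KI libraries each, and the labels name no treatment. Separate animals behind the 3 libraries of a group are not stated, and the p-values below therefore speak only of spread among libraries, possibly technical. To choose neuronal marker lists, HP was read as hippocampus, PFc as a cortical area, Nac and STR as striatal, and SN and VTA as dopaminergic midbrain.

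The choroid plexus is a fold of secretory epithelium that hangs in the ventricles and makes cerebrospinal fluid. It is continuous with the ependyma, the sheet of multiciliated cells that covers the ventricle walls and moves that fluid. In the mouse brain the choroid plexus is the main site of Ttr transcription. In bulk tissue, fewer cells of a type and less RNA per cell cannot be told apart.

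Library totals of estimated counts lay between 15145623 and 18863508. Maoa itself lay at 34.0 to 78.0 CPM (counts relative to the scaled total of the library) in the 18 WT libraries and at 37.7 to 97.4 CPM in the 18 KI libraries. Neuronal markers went against the region label in 8 libraries, whose score for their own region (mean log2(CPM + 1) of the list) fell below the midpoint between the medians of the libraries with and without such a label. In KI HP 2, KI SN 2 and WT VTA 3 the striatal neuron score was 8.59, 8.59 and 7.94, against 6.99 to 8.69 in the 8 libraries labelled Nac or STR that did not stand apart. WT Nac 2 and KI Nac 1 scored 5.25 and 6.58 on the midbrain dopamine list, and KI Nac 2 scored 5.51 on the hippocampal list. KI STR 3, at a striatal score of 5.30, and KI SN 1, at a dopamine score of 1.81, complete the 8. Results below are given under the labels, and several that rest on these libraries are also given without them. Given under the labels only are, among others, the region orders, the contrasts of regions other than STR with the rest, and the VTA value of Sostdc1. The longer lists in STR against the rest, the ratios to Ttr and the rankings of similar genes are too.

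Transthyretin (Ttr), the carrier of thyroxine and retinol-binding protein that choroid plexus cells secrete, was far higher in STR than anywhere else. Its level was 11240, 15600 and 10370 CPM in the WT STR libraries and 9083, 10000 and 3458 CPM in the KI STR libraries. KI STR 3 was the lowest of the 6, and no library of another region reached it. Over the other 30 libraries Ttr ran from 7.46 CPM in WT SN 2 through a median of 60.5 CPM to 2958 CPM in KI SN 1. By TPM (a transcript level scaled for both length and library total) Ttr was the most abundant gene of 5 of the 6 STR libraries, the fourth in KI STR 3, and also the most abundant gene of KI SN 1. It took 0.375% to 1.64% of all counts in the STR libraries.

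Outside STR the libraries of 1 region and genotype differed widely in Ttr. The WT HP libraries held 175, 50.1 and 756 CPM and the KI HP libraries 71.0, 649 and 72.8 CPM. WT PFc held 30.9, 1336 and 64.4 CPM, and KI PFc 39.4, 38.1 and 10.6 CPM. WT Nac held 56.5, 13.4 and 45.8 CPM, and KI Nac 226, 1283 and 10.6 CPM. A single library was far above the other two of its group in WT HP, KI HP, WT PFc and KI Nac, where the SD exceeded the mean (for example 477 ± 744 CPM, SD, n = 3, in WT PFc). WT SN held 48.6, 7.46 and 19.0 CPM, and KI SN 2958, 12.7 and 389 CPM (1120 ± 1603 CPM, SD, n = 3). WT VTA held 185, 156 and 17.4 CPM, and KI VTA 18.8, 191 and 106 CPM. By group mean the order in WT was STR, PFc, HP, VTA, Nac, SN, and in KI it was STR, SN, Nac, HP, VTA, PFc. Below STR all neighbours in both orders overlapped in their ranges.

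**Figure D1:**
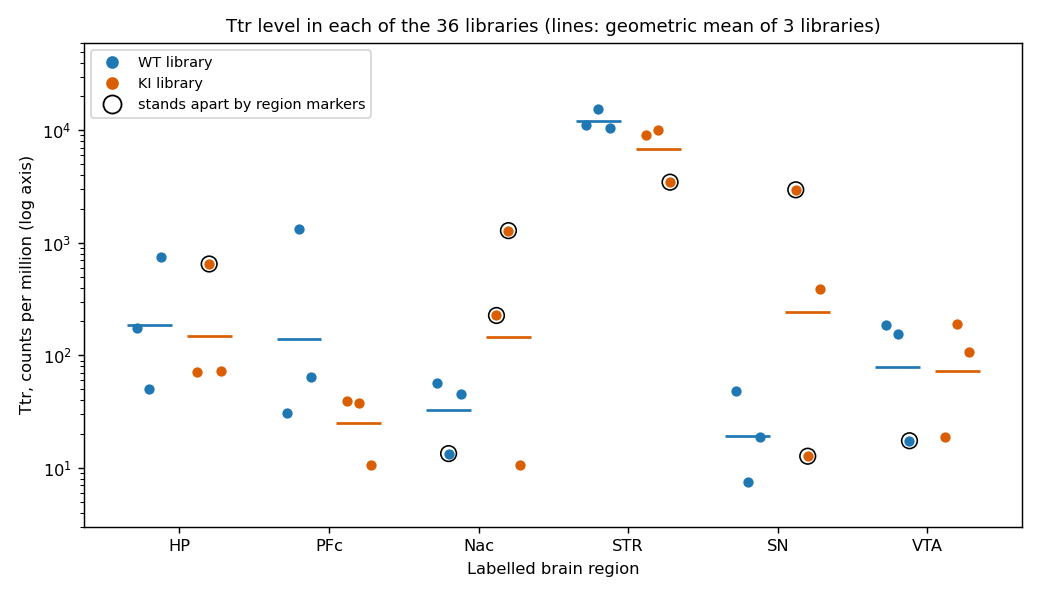
Ttr in CPM (log axis) for each of the 36 libraries, by labelled region, with WT in blue, KI in orange, a line at the geometric mean of 3 libraries and a ring around the 8 libraries that stand apart by region markers. The 6 STR libraries sit between 3458 and 15600 CPM, and the highest library elsewhere is KI SN 1 at 2958 CPM.

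The other 9 genes also had their highest group mean in STR in both genotypes. With Ttr, the STR range lay clear of the next region in 16 of the 20 combinations of gene and genotype, and 26 of all 100 pairs of neighbouring regions were clear of each other. In absolute terms, on the length-scaled TPM measure, Ttr averaged 41550 ± 8370 TPM in WT STR (SD, n = 3), followed by Folr1 at 144 ± 42.9, Clic6 at 107 ± 32.1, Kcne2 at 95.7 ± 15.9, Kl at 94.6 ± 31.4, Sostdc1 at 72.3 ± 12.6, Ccdc153 at 53.1 ± 36.9, Prr32 at 45.0 ± 12.1, Foxj1 at 40.3 ± 13.1 and Prlr at 14.2 ± 4.97. Apart from Ttr, neighbours in this order differed by less than the larger of their SDs, other than Foxj1 and Prlr.

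Among the epithelial transport and channel genes, Kcne2, a potassium channel beta subunit of the apical membrane, came nearest to an on-off pattern. It measured 64.8, 86.4 and 64.4 CPM in WT STR and 60.1, 64.1 and 16.4 CPM in KI STR. Elsewhere it had a median of 0.370 CPM, and its highest values were 12.3 CPM in KI SN 1, 11.3 CPM in WT PFc 2 and 10.8 CPM in KI Nac 2, the same 3 libraries in which Ttr passed 1000 CPM outside STR. Folr1, the folate receptor that carries folate into the fluid, measured 55.3, 89.2 and 55.7 CPM in WT STR and 32.2, 54.9 and 19.5 CPM in KI STR, with a median of 1.20 CPM elsewhere. Clic6, a chloride intracellular channel protein, measured 140, 251 and 189 CPM in WT STR and 167, 166 and 44.1 CPM in KI STR. Unlike Kcne2, Clic6 was also present at 60.2 CPM in KI HP 2, above the lowest STR library, and at 37.5 and 25.1 CPM in WT Nac 1 and WT Nac 3, where Ttr was at 56.5 and 45.8 CPM. In the 8 libraries outside STR whose striatal neuron score was above its midpoint, Clic6 had a median of 24.8 CPM (range 2.52 to 60.2), against 4.45 CPM (0.737 to 34.5) in the other 22. The corresponding medians of Kcne2 were 0.276 and 0.470 CPM.

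Of the receptor and secreted factor genes, Prlr, the prolactin receptor, measured 42.0, 73.4 and 76.4 CPM in WT STR and 87.1, 62.8 and 14.9 CPM in KI STR. Another 2 libraries, led by KI SN 1 at 15.03 CPM, lay above its lowest STR value. Its median elsewhere was 6.27 CPM, and the KI PFc libraries were lowest at 0.323, 0.628 and 0.402 CPM. Sostdc1, a secreted antagonist of BMP and Wnt signalling, measured 48.6, 64.0 and 56.0 CPM in WT STR and 56.6, 58.4 and 14.8 CPM in KI STR, and at most 12.3 CPM elsewhere. Kl, which encodes the FGF23 co-receptor klotho, measured 160, 284 and 266 CPM in WT STR and 236, 222 and 39.1 CPM in KI STR. Kl was also high in HP: all 6 HP libraries held 21.2 to 44.1 CPM, including WT HP 2 with Ttr at only 50.1 CPM. Among the 6 is KI HP 2, at 39.8 CPM, which stands apart with a hippocampal score of 1.51. In all, 4 libraries outside STR, led by KI Nac 2 at 64.7 CPM, exceeded the lowest STR value of Kl. In WT, HP was higher in Kl than the mean of the other regions by a log2 fold change of 1.19 (SE 0.41, adjusted p = 0.0358, edgeR's quasi-likelihood test, Benjamini-Hochberg adjustment). Kl was the 1 member of 10 called higher there, where 17.6% of all genes were called higher. In KI HP the log2 fold change of Kl was 0.94 (SE 0.60, edgeR adjusted p = 0.409), where 0 of 15084 genes were called higher.

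Prr32, a gene of little known function, measured 16.4, 26.6 and 17.2 CPM in WT STR, 16.5, 18.6 and 5.57 CPM in KI STR and 0 to 4.43 CPM elsewhere, with no count in WT SN 3. Foxj1 and Ccdc153 are the ependymal pair. Foxj1, the transcription factor that drives the programme of motile cilia, measured 37.0, 68.5 and 42.9 CPM in WT STR, 65.0, 61.2 and 27.2 CPM in KI STR, and 3.39 to 39.2 CPM elsewhere. Ccdc153, a coiled-coil protein gene used as an ependymal marker, measured 11.1, 35.6 and 11.7 CPM in WT STR and 32.8, 29.0 and 17.5 CPM in KI STR. Like Prlr, Clic6 and Kl, both overlapped between STR and the other regions: 4 libraries of other regions exceeded the lowest STR value of Ccdc153, led by WT Nac 1 at 17.1 CPM, and 3 exceeded that of Foxj1, led by KI HP 2 at 39.2 CPM.

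Because the genes were high in the same region, their promoters were read from RefSeq's annotation of GRCm38.p6, as 250 bases before to 50 after a start site. Of the 10 members 5 matched, with 8 promoters. Both strands were searched for GTTGCC, a core of the site of RFX factors, for TAATCC, the core bound by OTX factors, and for TGTTTAC, a forkhead site, none of which overlap in these windows. GTTGCC was in 12.51% of all 32851 promoters of that length, TAATCC in 7.06% and TGTTTAC in 3.65%. GTTGCC was found at Ccdc153, at 1 of 2 Kcne2 promoters and at Prr32, starting at -152, -109 (minus strand) and -10 from the start site, TGTTTAC at 1 of 3 Prlr promoters at -215, and TAATCC at none of the 8. A match is a description of the letters only. The 4 promoters with a match are shown 5′ to 3′ with the match in capitals:
Kcne2 (GTTGCC on the minus strand), chr16:92292139-92292438, plus strand: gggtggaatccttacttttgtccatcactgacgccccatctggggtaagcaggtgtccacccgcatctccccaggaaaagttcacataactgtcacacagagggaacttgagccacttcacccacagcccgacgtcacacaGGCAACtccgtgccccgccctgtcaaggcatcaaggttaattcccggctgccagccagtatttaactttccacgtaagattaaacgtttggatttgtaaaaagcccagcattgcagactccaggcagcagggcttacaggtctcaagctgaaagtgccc
Prr32 (GTTGCC), chrX:45090654-45090953, plus strand: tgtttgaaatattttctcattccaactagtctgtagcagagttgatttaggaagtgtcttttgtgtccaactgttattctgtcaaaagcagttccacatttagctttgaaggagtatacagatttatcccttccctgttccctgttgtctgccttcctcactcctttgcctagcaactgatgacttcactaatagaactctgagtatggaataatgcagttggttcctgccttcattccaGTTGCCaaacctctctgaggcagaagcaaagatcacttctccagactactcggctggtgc
Ccdc153 (GTTGCC), chr9:44240427-44240726, plus strand: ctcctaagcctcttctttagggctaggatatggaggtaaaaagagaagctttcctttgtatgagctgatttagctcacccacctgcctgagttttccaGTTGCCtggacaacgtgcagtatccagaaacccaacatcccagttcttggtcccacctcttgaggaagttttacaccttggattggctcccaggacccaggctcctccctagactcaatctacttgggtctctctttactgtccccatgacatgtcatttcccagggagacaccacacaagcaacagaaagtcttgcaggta
Prlr, the second start site (TGTTTAC), chr15:10223656-10223955, plus strand: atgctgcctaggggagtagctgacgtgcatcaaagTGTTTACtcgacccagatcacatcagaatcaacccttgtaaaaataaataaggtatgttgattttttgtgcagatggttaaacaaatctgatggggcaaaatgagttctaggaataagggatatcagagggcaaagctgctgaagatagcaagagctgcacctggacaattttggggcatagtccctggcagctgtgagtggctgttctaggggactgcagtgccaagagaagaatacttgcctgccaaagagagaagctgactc

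**Figure D2:**
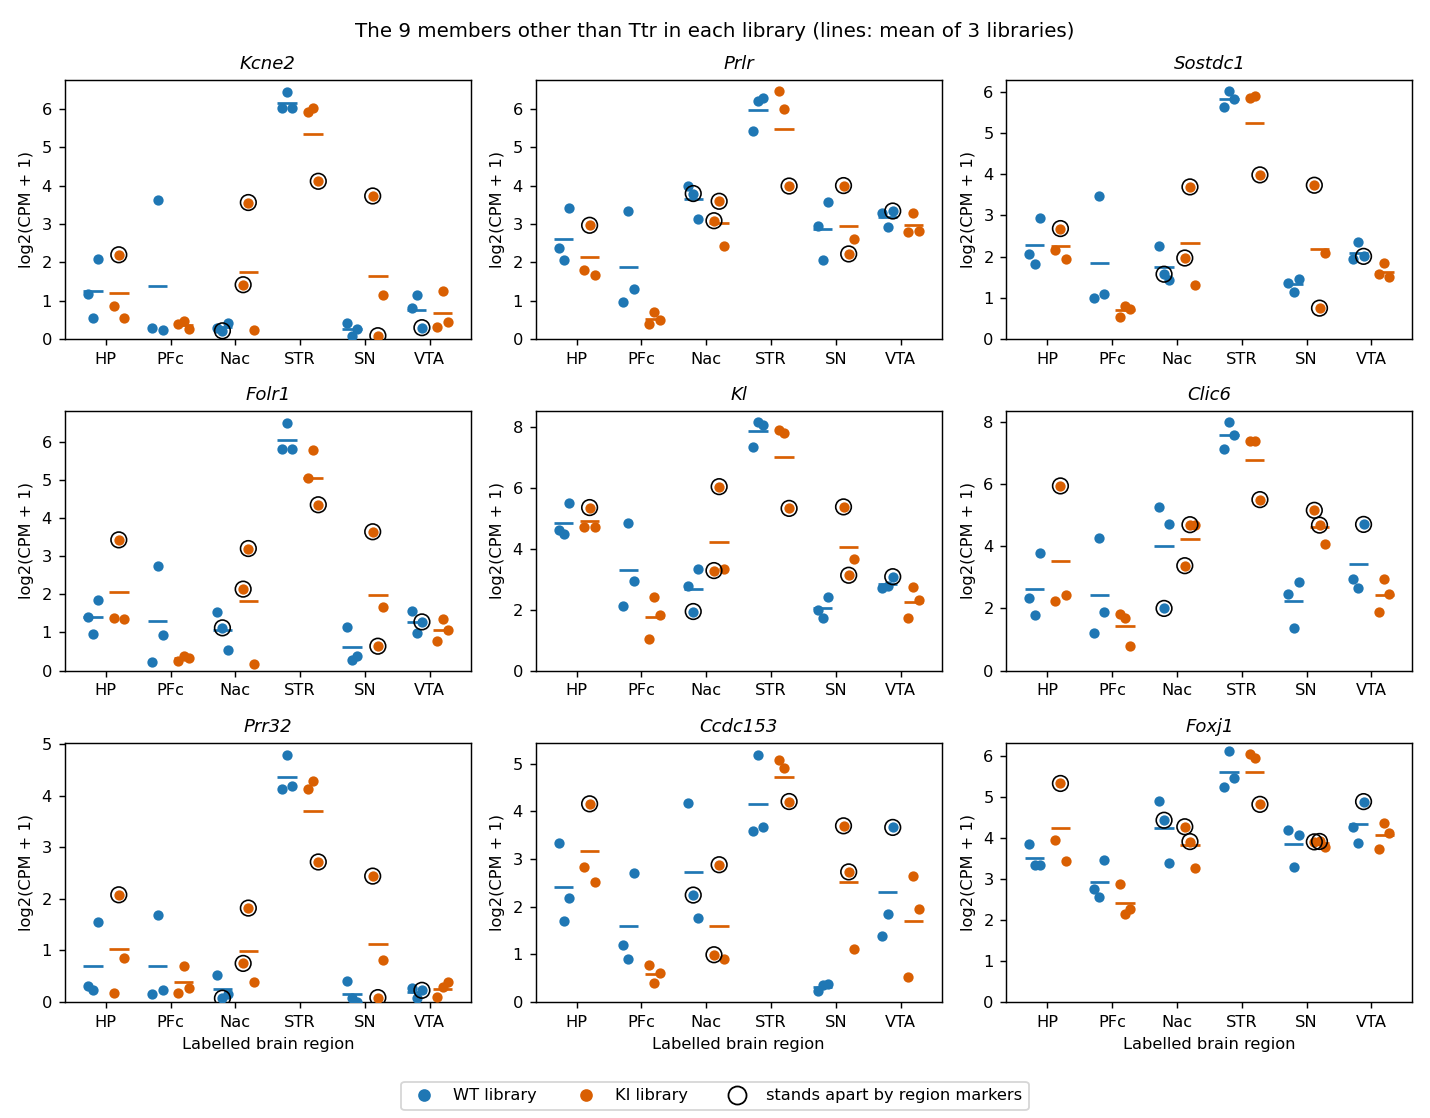
The 9 genes other than Ttr as log2(CPM + 1) in each library, by labelled region, with lines at the mean of 3 libraries and rings around the libraries that stand apart by region markers. Kcne2 is near 0 outside STR apart from single libraries (median 0.370 CPM), Kl is raised in HP as well, and Foxj1 runs from 3.39 to 39.2 CPM outside STR.

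Regions differed in all 10 genes in WT and in all 10 in KI by edgeR's F test over 6 regions, where 48.0% of 15094 genes were called in WT and 12.6% of 15084 in KI. STR against the mean of the other 5 regions was higher for all 10 members in WT, where 12.6% of genes were called higher, and for all 10 in KI, where 4.55% were. The high levels of Ttr, Kcne2 and Prr32 in STR were known when the genes were chosen. The other members and the longer lists below were also chosen with earlier results of these data known, so all these calls are a description. In WT the log2 fold change was 6.79 for Ttr (SE 0.78), 6.58 for Kcne2 (0.61), 6.03 for Prr32 (0.57) and 5.67 for Folr1 (0.45). It was 4.80 for Kl (0.36), 4.47 for Clic6 (0.58), 4.27 for Sostdc1 (0.38) and 3.24 for Prlr (0.40). The ependymal genes had the smallest differences, 2.87 for Ccdc153 (0.58) and 1.90 for Foxj1 (0.28). In KI the largest value was again that of Ttr, 5.14 (SE 0.94), with Kcne2 at 5.02 (0.78), and the smallest that of Foxj1, 2.07 (0.30). Adjusted p by edgeR's quasi-likelihood test lay between 5.25e-07 for Kl and 0.00263 for Ccdc153 in WT, and between 8.94e-05 for Prlr and 0.00372 for Ttr in KI. The median log2 fold change of the 10 genes was 4.63 in WT and 3.95 in KI, beside 0.01 and -0.02 over all genes tested.

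Leaving out the libraries that stand apart kept all 10 calls in both genotypes, beside 2740 of 15240 genes called higher in WT and 1261 of 15434 in KI, and the KI value of Ttr was then 7.24 (SE 0.66). Without the KI libraries numbered 3, which include KI STR 3, 7 of the 10 were called higher in KI, beside 217 of 15139 genes, and the F test over regions called 0 of 10 in KI, where all 10 had an unadjusted p under 0.05, and 8 genes in all. Ttr, Prr32 and Ccdc153 were the 3 that lost the STR call there, at log2 fold changes of 5.09, 4.4 and 3.11. DESeq2 called 9 of the 10 higher in WT, beside 1963 of 18571 genes, and gave no adjusted p for the remaining member. It called all 10 in KI, beside 828 of 18599.

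**Figure D3:**
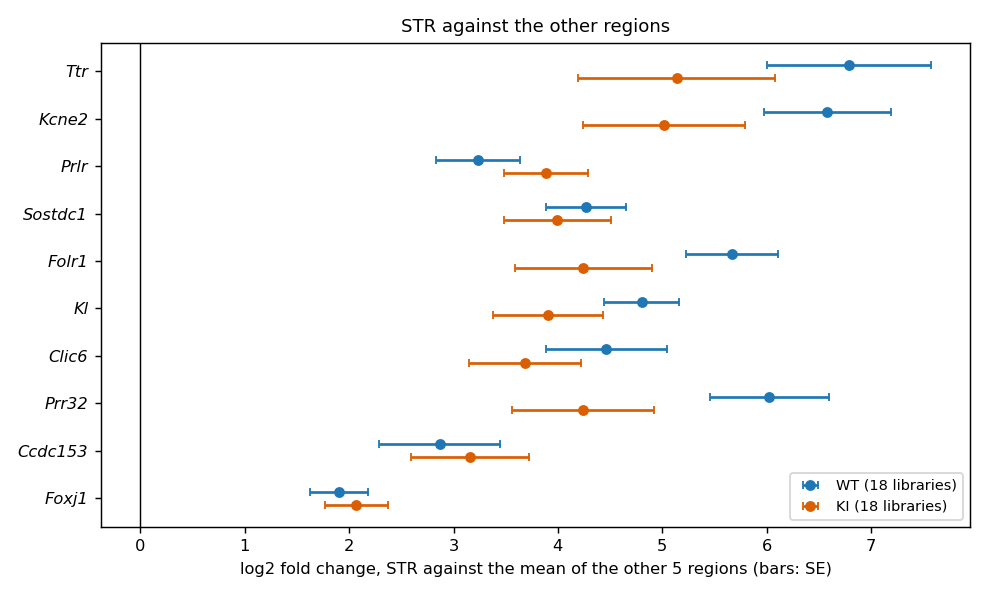
Log2 fold change of STR against the mean of the other 5 regions for each gene, with WT in blue, KI in orange and bars of 1 SE. All 20 values lie above 0, from 1.90 for Foxj1 in WT to 6.79 for Ttr in WT.

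Outside STR, PFc in KI had the most calls. PFc was lower than the rest for Prlr and Foxj1 in WT, 2 of 10 where 12.4% of genes were called lower, and for 7 of 10 in KI (Prlr, Sostdc1, Folr1, Kl, Clic6, Ccdc153 and Foxj1), where 2.43% of genes were. The KI PFc values ran from a log2 fold change of -2.13 for Foxj1 (SE 0.42, edgeR adjusted p = 0.00516) to -4.39 for Prlr (SE 0.74, edgeR adjusted p = 0.00171). SN was lower for Kl and Ccdc153 in WT, 2 of 10 beside 3.21% of genes, and VTA was lower for Kl in KI, 1 of 10 beside 10.8% of genes. The STR libraries are part of the mean against which each of these regions was set, as are libraries that stand apart by region markers.

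Longer lists of genes of the same cell types, none of them members, moved the same way in STR. Of 25 further choroid plexus genes, edgeR called 24 higher in WT STR and 22 in KI STR, beside the 12.6% and 4.55% of all genes, with a median log2 fold change of 4.56 and 3.43 over the list. Enpp2, the lysophospholipase D autotaxin and the most abundant of them, was at 1023 to 4411 CPM in STR and 185 to 742 CPM elsewhere. The water channel Aqp1 was at 14.4 to 59.2 CPM in STR and at most 11.2 CPM elsewhere, and the transcription factor Otx2 at 17.1 to 48.8 CPM in STR and 0 to 28.8 CPM elsewhere. Lmx1a, a transcription factor of the developing roof plate, was the 1 gene of the list not called in WT and was 1 of 3 not called in KI, at 2.37 in WT and 2.58 in KI (edgeR adjusted p = 0.0586 and 0.102). Of 37 tested genes of ependyma and motile cilia, 33 were called higher in WT and 32 in KI, with medians of 1.85 and 2.23. The radial spoke gene Rsph1 was at 16.4 to 38.5 CPM in STR and 1.21 to 18.2 CPM elsewhere, whereas Rfx3, a transcription factor of ciliated cells that neurons also express, was not called, at -0.44 in WT and -0.34 in KI.

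Markers of other tissue were read in the same comparison. Of 12 genes of meningeal and choroid plexus stromal fibroblasts, edgeR called 1 higher and 2 lower in WT STR, and 1 higher in KI STR. Over all genes it called 12.6% higher and 1231 of 15094 lower in WT STR, and 4.55% higher in KI STR. The median log2 fold changes of the list were -0.21 and -0.26. The 1 in both genotypes was Igf2, a growth factor made by meninges and choroid plexus, at 172 to 441 CPM in STR and 19.1 to 152 CPM elsewhere. With Igf2 the summed level of the list was 385 to 523 CPM in WT STR and 258 to 458 CPM in KI STR, against 56.4 to 364 CPM in the other groups, and none of its genes was at 0 over a group. Dcn, a proteoglycan of fibroblasts, was at 9.04 to 16.2 CPM in STR, within its range of 3.72 to 192 CPM elsewhere.

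Genes of the thalamus and habenula, which border the ventricles, were also higher in STR. Of 11 such genes edgeR called 8 higher in WT and 11 in KI, beside 12.6% and 4.55% of all genes, with medians of 2.17 and 2.48. Prkcd, a protein kinase of thalamic relay neurons, was at 102 to 532 CPM in STR and 7.79 to 138 CPM elsewhere. The summed level of the list was 533 to 1368 CPM in WT STR and 987 to 1171 CPM in KI STR, against 88.9 to 870 CPM in the other groups. Of 17 striatal neuron genes 15 were called higher in WT STR and 0 in KI STR by edgeR, beside the same shares of all genes. In KI 0 were at an unadjusted p under 0.05 and 0 were called by DESeq2. The striatal neuron score was 7.425 in KI STR 1, 7.014 in KI STR 2 and 5.305 in KI STR 3. In the KI libraries that STR was set against, this score ran from 3.70 in KI HP 1 to 8.69 in KI Nac 3. KI HP 2 and KI SN 2 were at 8.59. The part of other tissue in the STR libraries in the values of the 10 genes was not tested.

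The genes were next set against Ttr within each library, as counts per 1000 Ttr counts. Ttr is the denominator, so these ratios rise where Ttr is low by construction and are given as a description. In the 9 libraries with at least 1000 CPM of Ttr (6 of STR with WT PFc 2, KI Nac 2 and KI SN 1) 4 genes had the narrowest ratios. Prr32 ran from 1.46 to 1.98, Folr1 from 3.55 to 6.41, Kcne2 from 4.16 to 8.47 and Clic6 from 11.7 to 19.3, so that each varied by at most 2.04-fold while Ttr itself varied from 1283 to 15600 CPM. Sostdc1 varied by 2.27-fold and Prlr by 2.57-fold. Kl varied by 4.47-fold there (11.3 to 50.4, highest in KI Nac 2), Foxj1 by 3.33-fold and Ccdc153 by 7.68-fold (0.658 to 5.05).

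In the other 27 libraries the ratios of most genes rose: Clic6 reached 2298, Foxj1 1637, Prlr 960, Kl 860 and Ccdc153 670 counts per 1000 Ttr counts. Kcne2 was the exception, at 2.63 to 19.0 with a median of 7.37, against a median of 6.21 in the 9 libraries with high Ttr. Counts of Kcne2 were low in those 27 libraries, down to 1 in WT SN 2, so single ratios carry a large counting error.

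**Figure D4:**
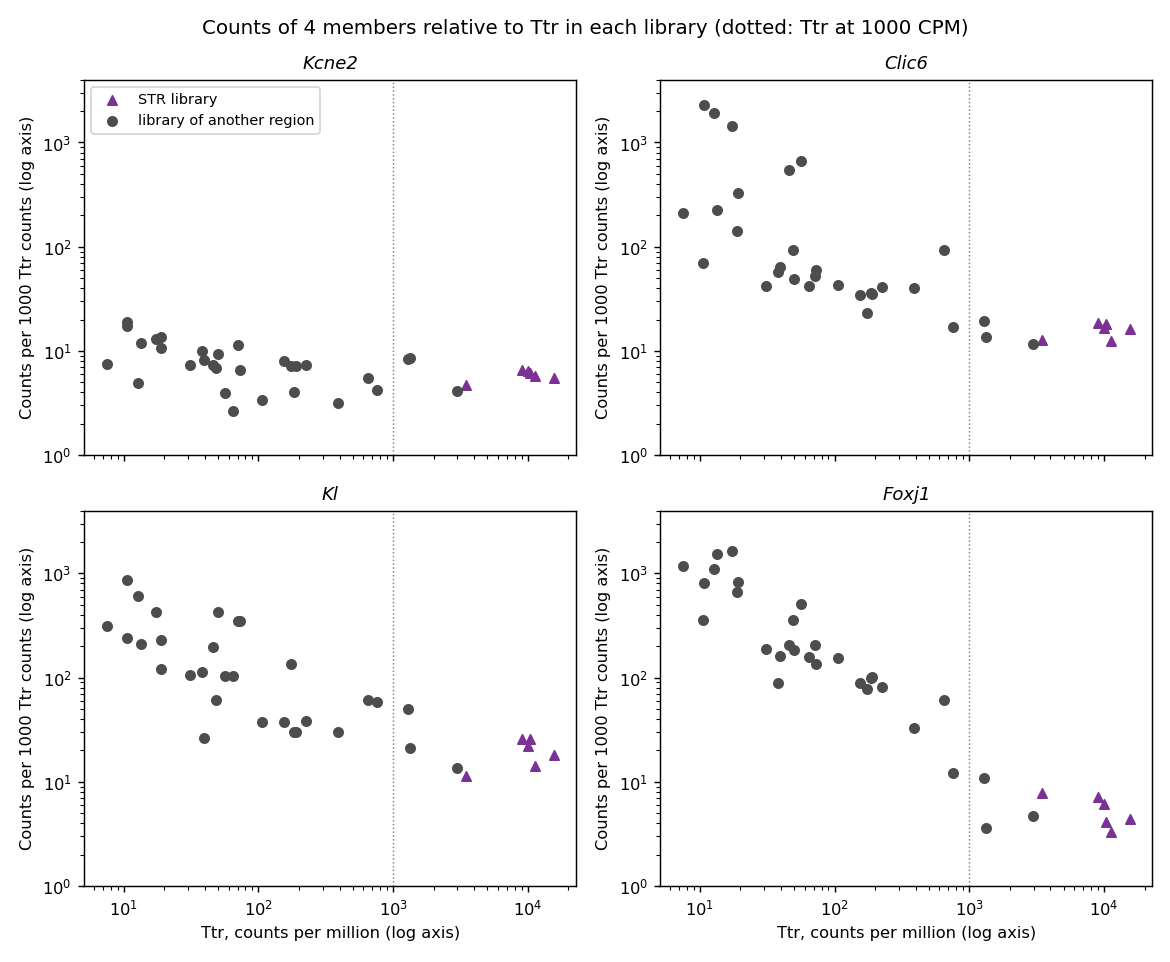
Counts per 1000 Ttr counts (log axis) against the Ttr level in CPM (log axis) for Kcne2, Clic6, Kl and Foxj1, with STR libraries as triangles, other regions as circles and a dotted line at 1000 CPM. Kcne2 stays between 2.63 and 19.0 over all libraries, whereas Clic6, Kl and Foxj1 are higher at low Ttr, where they reach 2298, 860 and 1637.

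Across the 36 libraries the gene most like the mean profile of the 8 choroid plexus members, among 14366 ranked genes, was Krt18, an epithelial keratin, at a Spearman rho of 0.953 (0.920 over the 30 libraries outside STR). It was followed by Calml4, Ecrg4, Aqp1, Krt8, Drc7, Cldn2, Tekt1, Lbp and Msx1, at 0.924 to 0.856. The gene most like the mean of Ccdc153 and Foxj1 was Odf3b at 0.965, followed by Cfap161, Ccdc146, Cdhr3, Tmem212, Ak7, Wdr93, Dnali1, Myb and Ppp1r32, at 0.960 to 0.939. The lists share no gene, and Drc7 and Tekt1 in the first are genes of motile cilia. Among the members, Sostdc1 and Folr1 followed the mean of the other choroid plexus members most closely (rho 0.940 and 0.938, and 0.897 and 0.895 outside STR). Prlr followed it least (0.735, and 0.551 outside STR), and Foxj1 outside STR had a rho of 0.398 with that mean. These values describe libraries that share their region labels and dissection.

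Kcne2 and Clic6 are neighbours on chromosome 16, at chr16:92292389-92298133 and chr16:92498147-92541241 (GRCm38.p6), 200013 bases apart with 11 annotated genes between them. Of these, 6 were in the table, and none had the pattern of its neighbours. Smim11 was at 8.07 to 12.7 CPM in STR and 4.15 to 13.0 CPM elsewhere, and Rcan1, a calcineurin regulator, at 48.3 to 67.2 and 51.1 to 88.7 CPM. Fam243, Smim34, Kcne1 and 2410124H12Rik stayed at or under 0.249 CPM in every library. The other members lie apart from each other: Kl at chr5:150952607-150993817, Folr1 at chr7:101858331-101870788, Ccdc153 at chr9:44240677-44247306, Foxj1 at chr11:116330704-116335499, Sostdc1 at chr12:36314169-36318452, Prlr at chr15:10177238-10349190, Ttr at chr18:20664209-20674326 and Prr32 at chrX:45090904-45092791.

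The transcript table splits each gene's count among annotated transcripts by estimate. For Ttr, 1 of 2 transcripts carried 90.8% of the count over the STR libraries and 91.0% over the others. Kcne2 rested on 1 of its 2 transcripts for 100% of the STR count in each library. Elsewhere that transcript held 87.5% of the pooled count but a median of 0% over libraries, where the other had a median of 100%, at the low counts of Kcne2 there. Prlr, with 7 transcripts, differed: 1 carried 80.0% of the STR count and 6.21% elsewhere, while a second carried 13.5% in STR and 79.7% elsewhere. Within STR the share of the first ran from 0 to 95.8% over the 6 libraries, so the split between these 2 Prlr transcripts was not stable between libraries of a region. Kl appears with 2 placements of the same transcript at equal counts (49.98% each in STR), so its gene level is the sum of both placements. Ccdc153 (5 transcripts) and Foxj1 (2) kept their leading transcript at 58.3% and 78.8% in STR and 59.1% and 75.5% elsewhere.

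KI was compared with WT within each region. By edgeR's quasi-likelihood test (Benjamini-Hochberg adjusted), 0 of the 10 genes passed in any region, and 0.0% of all genes passed in each of the 6 regions. Unadjusted p was under 0.05 for 0 of 10 tested members in HP, 5 of 7 in PFc, 2 of 8 in Nac, 1 of 10 in STR, 5 of 8 in SN and 1 of 9 in VTA. Over all genes it was under 0.05 for 2012 of 14144 in HP, 2562 of 14167 in PFc, 146 of 14333 in Nac, 1580 of 14658 in STR, 2531 of 14418 in SN and 1879 of 14490 in VTA. Members missing from the counts were removed by the filter on low counts. DESeq2 called 5 of 10 in SN, where it called 6.26% of genes, and 0 in HP, PFc, Nac, STR and VTA, where it called 2.2%, 3.08%, 0.0112%, 1.38% and 1.25% of genes.

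In SN, Kl, Clic6 and Ccdc153 were higher in each KI library than in each WT library, without passing edgeR's test. Kl measured 2.999, 2.34 and 4.34 CPM in WT SN and 40.4, 7.75 and 11.8 CPM in KI SN, a log2 fold change of 2.62 (SE 0.64, edgeR adjusted p = 0.136; DESeq2 adjusted p = 6.33e-04). Clic6 measured 4.50, 1.56 and 6.20 CPM in WT and 34.5, 24.6 and 15.6 CPM in KI, a log2 fold change of 2.59 (SE 0.51, edgeR adjusted p = 0.122; DESeq2 adjusted p = 3.55e-05). Ccdc153 measured 0.167, 0.279 and 0.303 CPM in WT and 11.98, 5.64 and 1.16 CPM in KI, a log2 fold change of 4.59 (SE 0.88, edgeR adjusted p = 0.122; DESeq2 adjusted p = 4.22e-06). These 3 genes, of the 8 tested, had no overlap between genotypes, beside 23.9% of all genes tested in SN. Ccdc153 passed the filter on low counts through KI, with counts of 3, 5 and 6 in WT and 181, 91 and 18 in KI. Kcne2 and Prr32, which the filter removed, overlapped. Prlr and Sostdc1 overlapped, with KI SN 2 the lowest of the 6 for Sostdc1 at 0.682 CPM. Ttr and Folr1 overlapped through KI SN 2: Ttr had a log2 fold change of 5.48 (SE 1.71, edgeR adjusted p = 0.184; DESeq2 adjusted p = 0.0203) and Folr1 one of 3.02 (SE 1.13, edgeR adjusted p = 0.23; DESeq2 adjusted p = 0.0353). Foxj1 was at 17.4, 8.75 and 15.8 CPM in WT and 14.0, 14.1 and 12.8 CPM in KI, a log2 fold change of -0.05 (SE 0.27, edgeR adjusted p = 0.946).

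The markers of the labelled region moved with this difference. KI SN 1 and KI SN 2 are 2 of the 3 KI SN libraries and both stand apart, at dopamine scores of 1.81 and 1.99 against 5.04 to 6.64 in the WT SN libraries. The striatal neuron score was 8.59 in KI SN 2, and KI SN 1 held Dcn at 192 CPM. KI SN 3 did not stand apart, but its striatal neuron score was 5.95, against 4.51 to 4.62 in the WT SN libraries. Without KI SN 1 and KI SN 2, KI SN 3 alone stood against WT, with no spread within KI. The log2 fold changes were then 3.96 for Ttr, 1.86 for Kl, 1.93 for Clic6 and 2.18 for Ccdc153. Without KI SN 3, edgeR called 1 of the 8 tested members, Ccdc153, at 5.09 (SE 0.49, adjusted p = 0.0285), beside 383 of 14662 genes. The part of the region content of these libraries in the differences was not tested. The authors' deposited table gives q-values of 0.023 for Ttr, 0.0395 for Folr1, 7.0e-04 for Kl, 3.83e-05 for Clic6 and 4.61e-06 for Ccdc153 in SN.

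In PFc the log2 fold changes of the 7 tested members were below 0, and none passed edgeR's test. Prlr measured 0.953, 9.09 and 1.47 CPM in WT and 0.323, 0.628 and 0.402 CPM in KI, a log2 fold change of -3.04 (SE 0.95, edgeR adjusted p = 0.216). The value was -2.66 for Sostdc1 (SE 0.98), -2.27 for Ccdc153 (0.78), -4.00 for Ttr (1.40) and -2.25 for Kl (0.83), with edgeR adjusted p of 0.223 to 0.237. Foxj1 had a log2 fold change of -0.59 (SE 0.35, edgeR adjusted p = 0.383). Prlr, Sostdc1 and Ccdc153 did not overlap between genotypes, 3 of 7 tested members beside 28.5% of genes. These members passed the filter on low counts through WT. Their KI counts were 5, 10 and 6 for Prlr, 7, 12 and 10 for Sostdc1, and 11, 5 and 8 for Ccdc153. Kcne2, Folr1 and Prr32, which the filter removed, overlapped, as did Ttr, Kl, Clic6 and Foxj1. WT PFc 2 decided the size of most of these log2 fold changes. Without it, Ttr was at -0.68 (SE 0.57), Sostdc1 at -0.75 (0.39), Kl at -0.90 (0.57) and Prlr at -1.39 (0.46). Ccdc153, which is low in WT PFc 2 at 0.880 CPM, was then at -2.68 (0.69). WT PFc 2 did not stand apart by its cortical score, 6.32 in a range of 6.09 to 6.35. Nor did KI PFc 1, but its striatal neuron score was 6.83, against 4.105 to 4.905 in the other PFc libraries. Without KI PFc 1, edgeR called 550 of 14299 genes and 0 of 9 tested members. DESeq2 gave no adjusted p for Prlr, Sostdc1, Ttr and Ccdc153 here, and the authors' deposited table gives q = 0.0212 for Prlr and 0.0592 for Sostdc1.

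In Nac, Ttr was at a log2 fold change of 3.71 (SE 1.503, edgeR adjusted p = 1) and Kl at 2.21 (SE 0.91, edgeR adjusted p = 1). For Ttr, KI Nac 1 and KI Nac 2 were high and KI Nac 3 was the lowest of the 6. For Kl only KI Nac 2 was high, at 64.7 CPM, with KI Nac 1 at 8.73 CPM and WT Nac 3 at 9.07 CPM. KI Nac 1 and KI Nac 2 stand apart by markers. Without them and WT Nac 2, KI Nac 3 alone stood against 2 WT libraries, and the value for Ttr was -2.30 and that for Kl 0.26, with no spread within KI. No member was free of overlap in Nac, beside 4.19% of genes, and none in HP, beside 23.9%. In HP the log2 fold change was -0.29 for Ttr (SE 1.18, edgeR adjusted p = 0.921) and 1.002 for Foxj1 (SE 0.51, edgeR adjusted p = 0.406). Without KI HP 2, whose striatal score was 8.59, these became -2.17 (SE 0.81) for Ttr and 0.21 (SE 0.22) for Foxj1. In Nac Foxj1 was at -0.55 (SE 0.46).

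In STR, where the genes are high, Ttr, Kcne2 and Folr1 did not overlap between genotypes, 3 of 10 beside 17.7% of genes. Ttr was at -0.71 (SE 0.36, edgeR adjusted p = 0.524), Folr1 at -0.89 (SE 0.35, edgeR adjusted p = 0.438) and Foxj1 at 0.06 (SE 0.34, edgeR adjusted p = 0.96). Without KI STR 3 these values were -0.37 (SE 0.19) for Ttr, -0.60 (SE 0.30) for Folr1 and 0.36 (SE 0.25) for Foxj1. In VTA, Sostdc1 alone of 9 tested members had no overlap, beside 23.4% of genes, at 2.83, 4.13 and 3.02 CPM in WT and 1.97, 2.58 and 1.82 CPM in KI, a log2 fold change of -0.65 (SE 0.26, edgeR adjusted p = 0.383). Ttr was at -0.18 (SE 0.97) and Foxj1 at -0.34 (SE 0.30) there.

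The longer lists were read between genotypes as well. EdgeR called 0 of their genes in any region. In SN, 32 of 33 tested ependymal and cilia genes were higher in KI, with a median log2 fold change of 1.55, and 26 of them had an unadjusted p under 0.05, beside 2531 of 14418 genes. Without KI SN 1 and KI SN 2, an alternative chosen after seeing the data that leaves 1 KI library, the median was 0.89. With all SN libraries kept, DESeq2 called 22 of 38 ependymal and cilia genes, beside 6.26% of all genes. Among the 22 were the cilia genes Tmem212 at 4.90 and Ak7 at 3.25. Of 21 tested choroid plexus genes in SN, again with all libraries kept, 5 had an unadjusted p under 0.05 by edgeR. DESeq2 called Aqp1, Calml4, Car12, F5 and Krt8. In STR, 0 of 25 choroid plexus genes and 31 of 37 ependymal genes were higher in KI, with medians of -0.51 and 0.25. Without KI STR 3, 4 of 25 and 35 of 37 were higher, with medians of -0.20 and 0.44. Foxj1 in SN, at -0.05, did not share the sign of most ependymal genes.

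**Figure D5:**
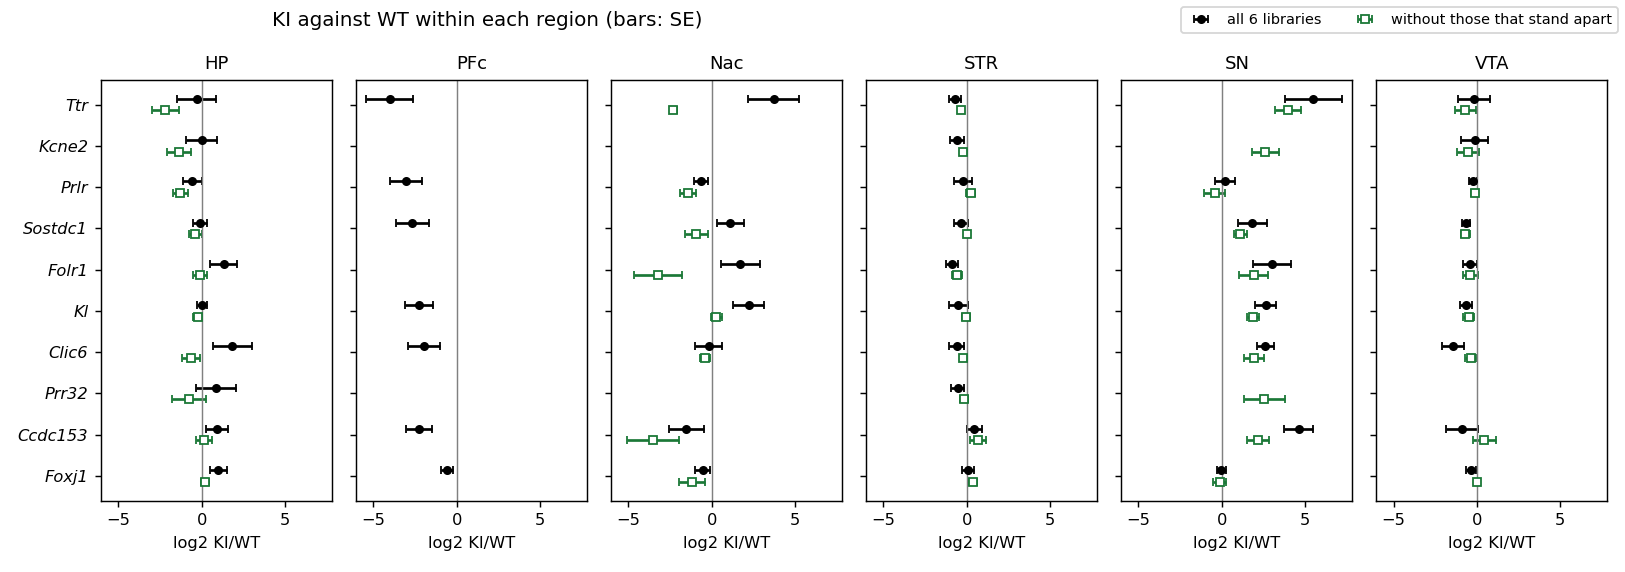
Log2 fold change of KI against WT for each gene within each region, with bars of 1 SE, for all 6 libraries (black) and without the libraries that stand apart by region markers (green, where a region has any), with no point where the low-count filter removed a gene. The values in SN and PFc lie on opposite sides of 0 for most genes, as for Ttr at 5.48 and -4.00, and the Nac value of Ttr moves from 3.71 to -2.30 with 1 KI library left.

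Over the sums of the 6 regions, edgeR called 0 of 10 members and 0.0% of genes, with 0 members at an unadjusted p under 0.05 and 0 by DESeq2. Ttr was at -0.46 (SE 0.40, edgeR adjusted p = 0.578) and Foxj1 at 0.00 (SE 0.21). The sums pool libraries by genotype and title number, and a number may not mark 1 animal. For Ttr the sums rest mostly on STR. Its leading transcript held 1008428 counts over the STR libraries and 133709 over the others. The leading transcript of Foxj1 held 4399 and 5436. Whether the KI difference varied between regions was tested over all 36 libraries: edgeR called 0 of 10 and 0.0% of genes, although 7 members had an unadjusted p under 0.05, from 0.00161 for Kl to 0.0196 for Clic6, beside 1340 of 15367 genes. Without the libraries that stand apart 4 members did, beside 2647 of 15687 genes, and without the WT libraries numbered 2, which include WT PFc 2, 1 did, beside 1502 of 15458. DESeq2's likelihood ratio test called 3 of 10 (Ttr, Kl and Ccdc153), beside 0.202% of genes.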

How the data were processed

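Gene expression was measured by RNA-seq (SMARTER mRNA-seq kit, per the labels' protocols) in 36 libraries. The deposited gene table holds expected counts and TPM made by the authors, and 9.88% of the estimated counts were not whole. The build was GRCm38.p6, per the submitters' processing notes, and for the aligner and counter the name was not given in the sources used. The authors' deposited comparison table holds log2 fold changes and q-values, which per the file headers came from DESeq2. Another 180 per-sample columns were not used. Groups come from the sample labels.

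Counts were rounded and tested with edgeR 4.0.16 (quasi-likelihood test, TMM factors, filter on low counts, threshold 0.05 after Benjamini-Hochberg adjustment over all genes tested) in R 4.3.3. DESeq2 1.42.0 was an alternative, with other factors, no filter, Ttr left out of the totals, a replicate block, each replicate left out, and the libraries that stand apart left out. CPM used TMM factors, and marker scores a pseudocount of 1. The methods were tested on simulated data. No 2 libraries of the same group agreed within sampling noise (pairs across groups were not compared). All 10 members are named. Within a region, fold changes are given for members with an unadjusted p under 0.05, for DESeq2 calls and for Ttr and Foxj1, and from longer lists for the 5 most abundant genes or those called. Single exceptions are named after their values were seen. Members and lists were chosen with earlier results of these data known.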

Additional observations from a re-analysis of the deposited data

Results flagged for a closer look

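The KI difference varied between regions for 3 of the 10 genes by DESeq2's likelihood ratio test over all 36 libraries, with adjusted p of 0.0174 for Ttr, 0.0187 for Kl and 0.0187 for Ccdc153. The log2 fold change of Ttr was 5.48 in SN, 3.71 in Nac and -4.00 in PFc, with 0 regions past edgeR's threshold. It was -2.30 in Nac without the libraries that stand apart, which leaves 1 KI library, and -0.68 in PFc without WT PFc 2. EdgeR's quasi-likelihood test gave an adjusted p of 0.563 for each of the 3, and 0.178, 0.206 and 0.282 for Ttr, Kl and Ccdc153 without the libraries that stand apart by region markers.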

How the results depend on the processing

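Under alternatives that leave out no single replicate, 70 counts of members called stayed within 1.5 times, and 2 did not: DESeq2's 5 in SN and 3 for genotype by region, against 0 by edgeR. Leaving out 1 replicate gave 0 to 1 in SN and 0 to 10 for region differences in KI. Libraries of the same replicate number were correlated by their deviations from the group mean. Values ran from -0.54 to 0.56 between WT and KI of a region, and from -0.61 to 0.70 between regions of a genotype. These values cannot tell whether a number marks 1 animal. With the replicate block the count of members called between genotypes remained 0. Foxj1 turned to 0.006 in SN and -0.048 over sums with the replicate block. Without the libraries that stand apart Ttr in Nac was -2.30 (KI Nac 3 alone against 2 WT libraries) and Foxj1 in VTA to 0.012. With region as a term, Ttr turned to 0.43 and Foxj1 to -0.071, and to -0.12 without the libraries that stand apart. With 1 replicate left out, Ttr ran from -2.17 to 1.23 in HP and -0.92 to 0.32 in VTA, and Foxj1 from -0.15 to 0.36 in STR, -0.29 to 0.13 in SN, -0.55 to 0.012 in VTA and -0.18 to 0.24 over sums. The cause was not tested. Over all genes edgeR called 0 in each region, and DESeq2 called 990 genes for SN, 375 for PFc, 259 for HP, 210 for STR, 185 for VTA and 2 for Nac, with 1364 over sums and 33 for genotype by region. Without the libraries that stand apart edgeR called 60 in HP and 838 in VTA, and without KI PFc 1 it called 550 in PFc.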
